A study of Mus musculus with 23 samples.

Results

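The genes described here encode the subunits of the oxidative phosphorylation complexes that are read from nuclear DNA, as measured by RNA-seq of mouse proximal small intestine. Members were the rows of the normalized count table whose symbol begins Ndufa, Ndufb, Ndufc, Ndufs, Ndufv, Uqcr, Cox4 to Cox8 or Atp5, without the Ndufaf assembly factors, and whose mean over 23 libraries was at least 10. This gave 77 of 16259 genes, with 38 in complex I, 8 in complex III, 14 in complex IV and 17 in the ATP synthase. The pattern itself matched 81 symbols. The 4 below the limit were Cox6a2 at a mean of 5.31, Cox4i2 at 1.09, Cox8b at 1.01 and Ndufa4l2 at 0.726, and the member closest above it was Atp5g2 at 13.3. All 77 members are among the 11939 genes tested. The symbols are not a perfect roster: Cox5b-ps is annotated as a pseudogene and Ndufb1-ps as a non-coding RNA, Cox7a2l is a factor that joins complexes III and IV, and Ndufa4, counted here with complex I by its symbol, is now placed in complex IV. Cytochrome c1 (Cyc1) and complex II fall outside the pattern, and the 13 subunits read from mitochondrial DNA are not analysed here.

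Wild-type and Ddit4 knockout mice, all labelled male, gave 12 and 11 libraries, each from whole tissue and each the only library of its combination of genotype, feeding, drug and time. Ddit4 is an inhibitor of the growth kinase complex mTORC1 that is induced by stress, and doxorubicin is a DNA-damaging drug given here at 20 mg/kg into the peritoneum. Untreated mice were fed ad libitum (0 h), fasted for 24 h, or fasted for 24 h and then refed for 2 or 6 h, in both genotypes. Doxorubicin mice were either fed ad libitum or fasted for 24 h and then refed ("prefasted" below), and were sampled at 2, 6, 12 and 24 h. These make 12 conditions, of which 11 have both genotypes, since a knockout library at 2 h of doxorubicin with ad libitum feeding is not analysed here. How the knockout was made, the strain and the age are not given in the sources used here. With 1 library per combination, the wild-type and the knockout library of a condition stand in as replicates, so a p-value reflects only the scatter of these libraries, which may be technical.

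Recovered depth was 11.42 to 23.43 reads per library in units of 1e+06, and 1 read was worth 0.705 to 1.67 normalized reads. The targeted gene was checked first: Ddit4 stood between 66.9 and 414 normalized reads in the 12 wild-type libraries and between 0 and 11.3 in the 11 knockout libraries. The enterocyte markers Vil1, Fabp1, Fabp2, Apoa4, Alpi and Sis were at or above 16520 normalized reads in every library. Several libraries go against their labels or stand apart. For 4 wild-type prefasted libraries the title reads untreated against doxorubicin in the drug field, and they were placed by the drug field. In 3 knockout untreated libraries (ad libitum, fasted, and refed for 2 h) there are fewer than 20 reads of Y-linked genes although the mice are labelled male. The other 20 libraries hold 1088 or more. Where only 1 side of a comparison holds any of these 3, the sides also differ in Y-linked reads. Pancreatic acinar transcripts are highest in 2 libraries, knockout fasted and wild type refed for 6 h, with summed markers at 82960 and 220400 normalized reads. These are called the 2 libraries with pancreatic transcripts below. Prss2 reached 15390 and was at 0 in 14 of 23 libraries. Smaller sums were present in other libraries, all far below these 2. Wild type stood at 2053 untreated with ad libitum feeding, 3717 at 12 h of doxorubicin with ad libitum feeding and 3035 at 24 h after the prefast.

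Oxidative phosphorylation passes electrons from NADH and succinate along complexes I to IV. Complexes I, III and IV pump protons out of the mitochondrial matrix, complex II does not, and the ATP synthase lets the protons flow back to make ATP. Each complex except complex II mixes subunits from the nuclear and the mitochondrial genome, so the nuclear genes supply most of the parts but not all of the catalytic ones. In the small intestine the pathway serves absorptive enterocytes, which spend ATP on nutrient transport, and also the dividing cells of the crypts and the muscle layer of the gut wall. Nuclear subunit genes are known targets of the transcription factors NRF1, GABP (an ETS factor), YY1 and the ERR receptors, and for that reason their promoters were searched for the core letters of those factors' motifs.

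Promoter windows from 250 bases before to 50 bases after the annotated start were taken from RefSeq (GRCm38.p6, the mm10 build) and matched 64 of 77 members. Those with no window included Atp5a1, Atp5mpl, Cox4i1, Cox5b-ps, Cox6c, Ndufa2, Ndufb1-ps, Ndufb9, Ndufs1, Uqcrb, Uqcrc2 and Uqcrq. Both strands were searched, and in 0 members did matches of different motifs overlap. The NRF1 core GCGCATGC was present in 9 members (14.1%, against 5.86% of the tested genes with a window and 3.05% of all genes with one). The YY1 core AANATGGCG was present in 10 members (15.6%, against 5.99% and 2.76%), of which 7 belong to complex I, 3 to the ATP synthase and 0 to complexes III and IV. The ETS core CCGGAAG was in 15 members (23.4%, against 20.2% and 9.93%) and the ERR core TCAAGGTCA in 1, Atp5g3 (1.56%, against 0.334% and 0.466%). Any of the 4 was found in 46.9% of members and 29.1% of tested genes. A match says only that these letters occur in the window.

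Of the 10 members that were lower at 24 h of doxorubicin (described further on), 9 have a window. The YY1 core is in 5 of these, against 10 of all 64 members with a window and 5.99% of tested genes. The ETS core is in 2, against 15 of the 64, and the NRF1 or ERR core in 0. The calls that picked these members rest on few libraries, and a link between a core and the fall was not tested. Those 5 YY1 matches are shown with their flanks, with the core in capitals, on the gene's strand and 5′ to 3′. In 4 of them, as in 8 of the 10 members with this core, the ATG inside the capitals is the gene's annotated start codon, and Atp5j is the exception among those shown.
Ndufc1 (chr3:51408917-51408946, minus strand): gagcctgcggaacAAGATGGCGccgtccgt
Atp5j2 (chr5:145191502-145191531, minus strand): acaccaggacttcAAGATGGCGtcactcgg
Ndufa9 (chr6:126849099-126849128, minus strand): ggcattgtgggagAAGATGGCGgccgccgt
Ndufs4 (chr13:114388045-114388072, minus strand): gtttgcctacaggAAGATGGCGgcggtc
Atp5j (chr16:84835048-84835077, minus strand): ttaaagtgtaggaAAGATGGCGgagtctta

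The NRF1 core is its own reverse complement in part, so that GCGCATGCGC holds it on both strands. It is shown for 3 members, with the core in capitals: Uqcrc1, the gene with the highest mean in complex III, Cox6a1, the isoform of complex IV subunit 6a present in this tissue, and Atp5g2, the member with the lowest mean.
Uqcrc1 (chr9:108936665-108936694, plus strand): cagactccgctctGCGCATGCGCagcgcgg
Cox6a1 (chr5:115349104-115349133, minus strand): gcacaggaacgggGCGCATGCGCgctctcg
Atp5g2 (chr15:102671073-102671102, minus strand): gttggctccggccGCGCATGCGCagagcct

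The promoters of Uqcrfs1 and Cox6b2, the members with the smallest p-value for a fall and the only called rise at 24 h, contain none of the 4 cores in the stretch from 150 bases before to 25 bases after the start. They are printed so that the 2 can be set beside each other.
Uqcrfs1 (chr13:30545292-30545466, minus strand): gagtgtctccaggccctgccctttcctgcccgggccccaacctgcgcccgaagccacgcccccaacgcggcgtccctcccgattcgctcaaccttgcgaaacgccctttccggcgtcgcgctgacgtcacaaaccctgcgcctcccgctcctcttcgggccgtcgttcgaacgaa
Cox6b2 (chr7:4753070-4753244, minus strand): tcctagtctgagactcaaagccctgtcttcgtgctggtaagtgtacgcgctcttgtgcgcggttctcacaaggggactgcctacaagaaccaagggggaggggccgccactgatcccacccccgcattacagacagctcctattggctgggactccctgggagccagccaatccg

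Together the members held between 1.39% (wild-type prefasted, 6 h of doxorubicin) and 2.95% (untreated knockout fed ad libitum) of all values in a library. Levels in this paragraph are normalized reads, given as the lowest, median and highest over the 23 libraries. In complex I, genes with high means included Ndufa4 (2141, 4598 and 5774) and Ndufv1, which binds NADH (2953, 4124 and 5291). In complex III the highest means belonged to the core protein Uqcrc1 (10881, 13266 and 19060), the Rieske iron-sulfur protein Uqcrfs1 (5567, 7988 and 13742) and the hinge protein Uqcrh (4698, 7700 and 14523). The untreated knockout library fed ad libitum was the highest of the 23 for Ndufv1, Uqcrfs1 and Uqcrh, and the wild-type prefasted library at 6 h of doxorubicin was the lowest for Ndufv1 and Uqcrfs1. In complex IV the highest means belonged to Cox4i1 (13535, 17232 and 26423), Cox6a1 (9873, 14268 and 20086) and Cox6c (4657, 7422 and 13577). In the ATP synthase they belonged to the catalytic subunit Atp5b (28380, 37273 and 45233), its partner Atp5a1 (24145, 33724 and 45537) and the c-ring gene Atp5g3 (8538, 16040 and 20816). Atp5b was the steadiest member, with a coefficient of variation of 13.2% over the libraries, and Ndufs5 the least steady at 65.6%.

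Per kilobase of the median annotated transcript (GENCODE vM21), the members spanned a wide range of levels. The 7 subunits of the complex I catalytic core had a median of 2641 normalized reads per kb, with 888.6 for Ndufs1, and the other 31 complex I genes a median of 2041, from 85.4 for Ndufb2 to 9204 for Ndufa4. The 5 genes of the ATP synthase F1 head and central stalk had a median of 12190 normalized reads per kb, and the 3 with a length among the peripheral stalk genes a median of 4881. Where a subunit has isoforms, 1 form led in this tissue. On the same scale, Cox4i1 stood at 22940 against 1.5 for the lung isoform Cox4i2, Cox6a1 at 25242 against 7.81 for the heart and muscle isoform Cox6a2, and Cox8a at 11396 against 2.80 for Cox8b. Cox6b1 stood at 14010 against 152 for the testis isoform Cox6b2, and Ndufa4 at 9204 against 0.777 for Ndufa4l2. The muscle isoform Cox7a1 was the exception in size, at 2915 against 6754 for Cox7a2. The 3 genes for the same mature c-ring subunit stood at 21209 (Atp5g3), 588 (Atp5g1) and 22.6 (Atp5g2). For 11 members (Atp5g1, Atp5g2, Atp5h, Atp5l, Atp5o, Ndufa12, Ndufab1, Ndufs3, Ndufs5, Ndufs6 and Uqcrb) the annotation holds a near-identical copy, and their values are uncertain because reads could be split between copies.

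The members moved together from library to library. Across the 23 libraries the correlation of a member with the mean of the others had a median of 0.828, and it was above 0.5 for 67 of 77, given here as a description because the points share library, depth and RNA quality. Pairs within a complex were no closer (median pairwise r 0.634) than pairs from different complexes (0.66), and the 4 complexes' mean levels correlated at 0.859 to 0.95. The members farthest from the common pattern were Cox6b2 (r of -0.38), Atp5g2 (-0.12) and Ndufs5 (-0.104), followed by Uqcrc1 (0.172), Cox7a2l (0.28) and Uqcrc2 (0.305). The common pattern was shared with other genes that have short transcripts. The members have short transcripts, with a median of 711 bases against 2682 for tested genes. Their mean level correlated at 0.867 over the 23 libraries with that of 384 other genes with transcripts under 800 bases. Those 384 have a mean of at least 50. They were not sorted by function, and mitochondrial genes that are not members were not removed. For the 29 members with longer transcripts this correlation was 0.839. The part of transcript length or RNA quality in these levels was not tested, and medians after a length trend was removed from each library are given where they moved the result.

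**Figure D1:**
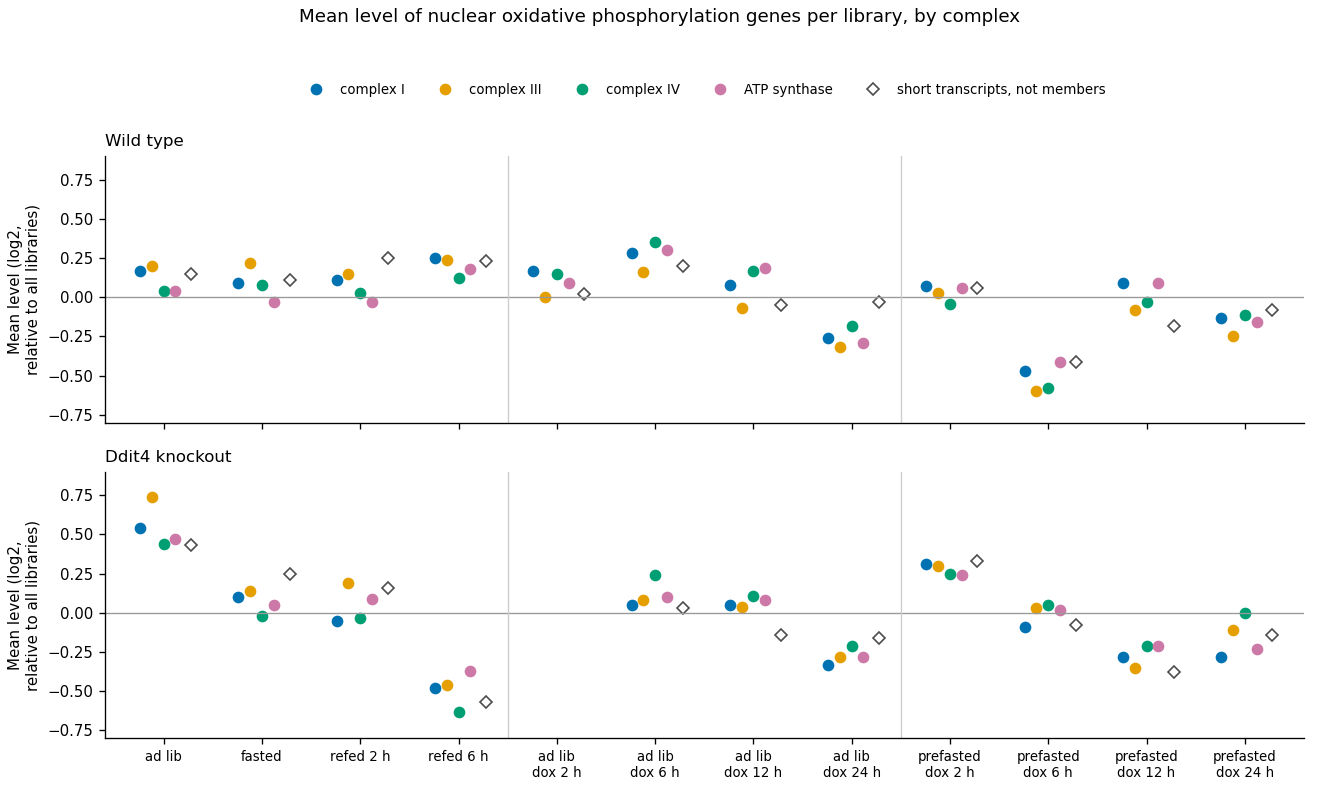
Mean level of each complex in each of the 23 libraries (vertical axis, log2 relative to the mean over all libraries; upper panel wild type, lower panel Ddit4 knockout), with open diamonds for the 384 other short transcripts. The untreated knockout library fed ad libitum is highest (0.53 over all members), and the wild-type prefasted library at 6 h of doxorubicin (-0.49) and the knockout library refed for 6 h (-0.48) are lowest.

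The mean level over all members, on a log2 scale relative to each gene's mean over the libraries, was highest in the untreated knockout library fed ad libitum, at 0.53, where 74 of 77 members lay above their own mean. The 384 other short transcripts stood at 0.43 in that library. The lowest levels were -0.49 in the wild-type prefasted library at 6 h of doxorubicin (short transcripts -0.41) and -0.48 in the knockout library refed for 6 h without drug (short transcripts -0.57). All 4 libraries at 24 h of doxorubicin lay below 0, at -0.26 and -0.29 with ad libitum feeding and at -0.14 and -0.20 after the prefast (wild type first). The short transcripts stood at -0.03 and -0.16, and at -0.08 and -0.14, in the same libraries, nearer to 0 than the members in each of the 4.

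**Figure D2:**
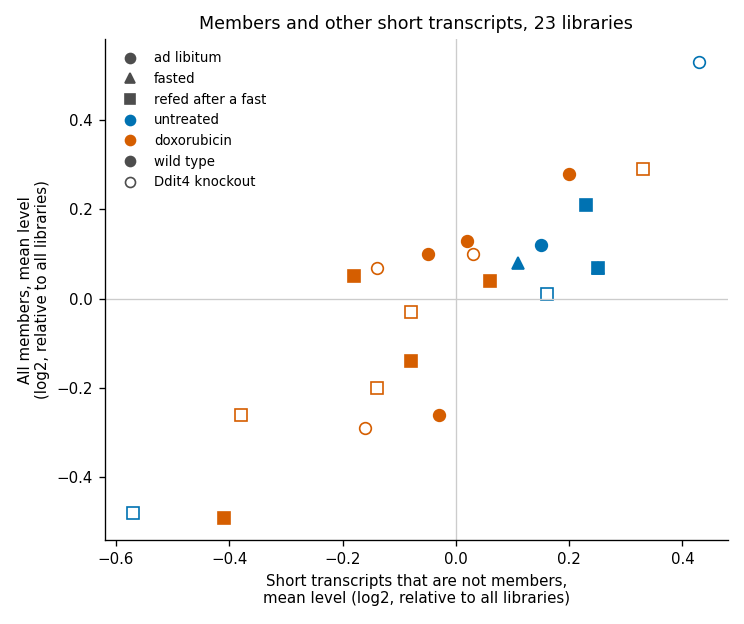
Mean level of all members (vertical axis) against that of 384 other genes with transcripts under 800 bases (horizontal axis), both log2 relative to the mean over all libraries, with 1 point per library. The points rise together (r of 0.867), and the knockout fasted library lies under the wild-type library refed for 2 h at the right.

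The largest difference among the comparisons was seen 24 h after doxorubicin in mice fed ad libitum, where respiratory chain and ATP synthase genes were lower in both genotypes. Of 77 members 73 had a negative difference from the untreated pair, with a median log2 difference of -0.67, which is a level of 0.628 of the untreated one, while the median over all genes tested was 0.016. By limma with Benjamini-Hochberg adjustment over all genes 10 members fell and 1 rose, which is 13% lower against 1.37% of all genes lower and 1.73% higher. Both 24 h libraries lay below both untreated libraries for 70 of 77 members (90.9%), as they did for 27.9% of all genes tested. By complex the median log2 difference was -0.65 for complex I (4 of 38 fell), -0.83 for complex III (2 of 8 fell), -0.69 for complex IV (1 of 14 fell and 1 rose) and -0.65 for the ATP synthase (3 of 17 fell). Untreated mice fed ad libitum were sampled at 0 h only. In the ad libitum comparisons at 6, 12 and 24 h the drug therefore cannot be told apart from elapsed time or the hour of collection. Within the knockout, the drug also cannot be told apart from the difference in Y-linked reads. There were 0 of these reads in the untreated library against 1725, 1725 and 2030 at 6, 12 and 24 h. In bulk tissue fewer cells of a type and less RNA per cell cannot be told apart.

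Complex III held the member with the smallest p-value for a fall. Uqcrfs1, the Rieske protein that carries electrons to cytochrome c1 (chr13:30540308-30545362, minus strand), stood at 10432 and 13742 normalized reads in the untreated wild-type and knockout libraries and at 5624 and 6180 at 24 h. The groups did not overlap, and the log2 difference was -1.02 ± 0.18 (SE, n = 2 libraries a group, limma adjusted p = 0.00749). The core protein Uqcrc2 stood at 6403 and 6925 untreated and at 4007 and 4164 at 24 h, a log2 difference of -0.70 ± 0.14 (limma adjusted p = 0.0149). Its partner Uqcrc1, which shares the same fold in the complex, differed by -0.32 ± 0.19 and did not pass (limma adjusted p = 0.405). The 5 small subunits of complex III lay between -0.87 and -0.72, and 0 of 5 passed.

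In complex I the 7 catalytic core subunits had negative differences, from -0.89 to -0.53. Ndufs8, an iron-sulfur subunit of the core, fell from 1849 and 2263 normalized reads to 1209 and 1013 (log2 difference -0.89 ± 0.20, limma adjusted p = 0.0286). The other 3 called genes of complex I are accessory subunits. Ndufc1 went from 1874 and 2902 to 1078 and 1137 normalized reads and had the largest fall of the complex (-1.07 ± 0.20, limma adjusted p = 0.00958). Ndufs4, whose loss is a known cause of complex I deficiency, went from 1664 and 2251 to 1141 and 1090 (-0.79 ± 0.20, limma adjusted p = 0.0374), and Ndufa9 from 3362 and 3917 to 2187 and 2222 (-0.72 ± 0.18, limma adjusted p = 0.0400). For each of these 4 genes both 24 h libraries were under both untreated ones. Ndufs5 had the largest positive difference of the complex, 1.45 ± 1.22, and did not pass, and its 2 genotypes are described below.

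In complex IV Cox5a, a subunit on the matrix side, fell from 6270 and 8950 normalized reads to 4511 and 4191 (log2 difference -0.78 ± 0.21, limma adjusted p = 0.0489). Cox6b2, the testis form of a subunit facing the intermembrane space, rose by 2.76 ± 0.57 (limma adjusted p = 0.0171), and Cox5b-ps had the lowest value at -1.03 ± 0.67 without passing. Of the other 11 genes of complex IV, 0 passed, and each difference was negative. In the ATP synthase the central stalk gene Atp5c1 went from 10739 and 12766 normalized reads to 7635 and 7531 (-0.63 ± 0.15, limma adjusted p = 0.0316). The peripheral stalk gene Atp5j went from 4150 and 6601 to 2770 and 2734 (-0.93 ± 0.21, limma adjusted p = 0.0266), and the membrane subunit gene Atp5j2 from 5534 and 8619 to 3724 and 3624 (-0.91 ± 0.20, limma adjusted p = 0.0239). The central stalk gene Atp5e had the largest difference of the complex at -1.06 ± 0.32 and missed the threshold (limma adjusted p = 0.0777), and Atp5g2, at 12.9 and 5.64 untreated against 10.8 and 15.5, had the most positive one at 0.54 ± 0.99.

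**Figure D3:**
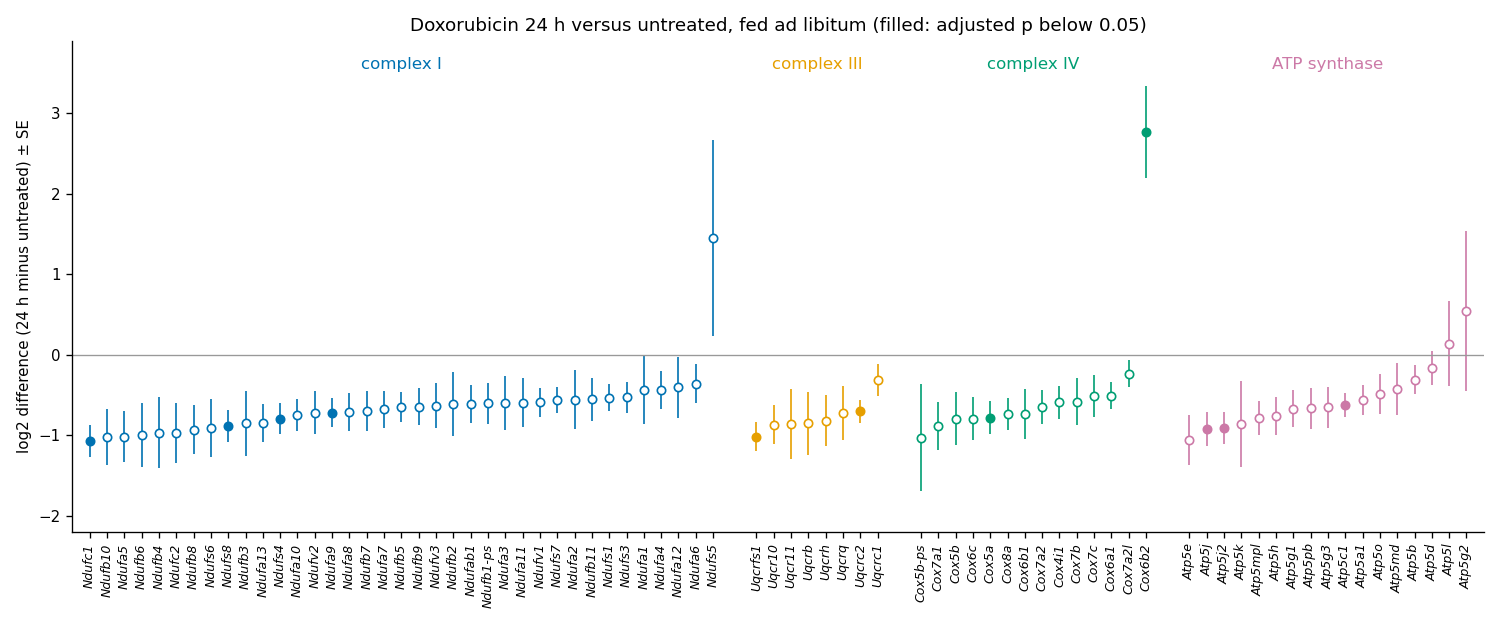
Log2 difference of 76 of the 77 members between 24 h of doxorubicin and untreated, both with ad libitum feeding (vertical axis, with standard errors), ordered within each complex. Filled points passed the limma threshold: 10 members lie below 0 and Cox6b2 above it, and 72 of 76 points are below 0.

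The fall was not equal in the 2 genotypes, and its calls leaned on both knockout libraries of the comparison. Within wild type the median member difference at 24 h was -0.42, with 74 of 77 negative, and within the knockout it was -0.93, also with 74 of 77 negative, and the gap between genotypes was not tested. The other short transcripts differed by a median of -0.21 in wild type and -0.62 in the knockout, and by -0.41 in the fit, while the 29 members with transcripts of 800 bases or more had a median of -0.61 with 29 of 29 negative. With the length trend removed from each library the median over all members was -0.37 and 6 were called. Without the untreated knockout library fed ad libitum, which holds no Y-linked reads, 0 members were called and the median was -0.42. Without the knockout library at 24 h 0 were called as well, without the wild-type one 3 were, and without either untreated library refed for 6 h 23 were. Sums of cell type markers differed in the same contrast. The summed level of 10 smooth muscle markers was 5219 and 7689 normalized reads untreated against 3980 and 2577 at 24 h. That of 16 crypt markers was 7185 and 5954 against 2998 and 2477. The sum of 11 Paneth cell markers was 28100 and 22130 against 14280 and 7551, and that of 7 striated muscle markers 346 and 174 against 75.8 and 71.2. Higher at 24 h were the sums of 20 enterocyte markers (1334000 and 1456000 against 1679000 and 1707000), 8 goblet cell markers (135400 and 140600 against 232100 and 199500) and 9 fat tissue markers (2535 and 2917 against 4186 and 4439). For the other 3 lists (pancreatic acinar, B cell and T cell) the libraries overlapped. The fitted difference was negative for 13 of 13 pancreatic acinar, 3 of 3 B cell and 2 of 8 T cell markers tested. The acinar marker Ctrb1 stood at 409 and 4.52 normalized reads untreated against 210 and 3.53 at 24 h (wild type first). Single markers did not all go with these sums. Of the markers tested, the fitted difference was negative for 5 of 20 enterocyte, 3 of 8 goblet and 0 of 8 fat markers. In the lower lists it was negative for 14 of 16 crypt and 8 of 11 Paneth markers. For the muscle lists it was negative in 9 of 9 (smooth) and 2 of 2 (striated). The enterocyte marker Sis stood at 62990 and 69600 normalized reads untreated against 60790 and 51970 at 24 h. Among the defining markers of the 7 lists that did not overlap, those at 0 in at least 1 of the 4 libraries were Ckm and Myh7 of striated muscle and Adipoq and Plin1 of fat. The part of these cell types in the result was not tested.

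At 24 h each list of neighbouring genes of mitochondrial energy metabolism held 0 to 2 genes that passed the test. In every list with a called gene the share lower was above the 1.37% of all genes lower, on 1 or 2 genes a list. In complex II, which feeds electrons from succinate, 4 of 4 genes had negative differences with a median of -0.72, and 1 fell (Sdhc, -0.77 ± 0.15, limma adjusted p = 0.0146). Cyc1, the cytochrome c1 subunit of complex III, fell by 0.82 on the log2 scale (limma adjusted p = 0.0262), while Cycs, cytochrome c itself, stood at -0.83 ± 0.45 without passing. Of 45 assembly factors tested 1 fell, Tmem70 of ATP synthase assembly, and the median was -0.49. Of 17 genes of the TCA cycle and pyruvate dehydrogenase 17 were negative with a median of -0.43, and 1 fell, the isocitrate dehydrogenase subunit Idh3b (-0.99 ± 0.18, limma adjusted p = 0.00958). All 76 mitochondrial ribosomal protein genes were negative with a median of -0.63, and 2 fell (Mrpl36 and Mrpl17). The 61 cytosolic ribosomal protein genes, which are short as well, had a median of -0.48 and 0 called. Of 17 regulators of mitochondrial biogenesis 0 passed, and the smallest p-value belonged to Ppargc1b, a coactivator of ERR (-0.86 ± 0.28, limma adjusted p = 0.100). The short transcripts that are not members had a median of -0.41 in the same fit. Without the untreated knockout library fed ad libitum, 0 genes of these lists were called (0 of 4 in complex II, 0 of 45 assembly factors, 0 of 17 in the TCA cycle and 0 of 76 mitochondrial ribosomal proteins), and 11 of all genes were lower. The medians were then -0.56 in complex II, -0.37 for assembly factors, -0.42 for the TCA cycle, -0.47 for mitochondrial and -0.27 for cytosolic ribosomal proteins.

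At 12 h of doxorubicin with ad libitum feeding the same direction was present at a smaller size. By limma 4 members fell (5.19%, against 4.21% of all genes lower) and 1 rose (against 4.78% higher), so the count for members is near the background. The median log2 difference was -0.30, with 69 of 77 negative, and -0.01 with the length trend removed from each library. Cox7a2l, the supercomplex factor, stood at 3018 and 3489 normalized reads untreated and at 1955 and 1745 at 12 h (-0.81 ± 0.17, limma adjusted p = 0.00903), and at 24 h it was at 2617 and 2897, above both values at 12 h and below both untreated ones. The other 3 that fell were Uqcrfs1 (-0.72 ± 0.18, limma adjusted p = 0.0213), the complex I core subunit Ndufs7 (-0.58 ± 0.17, limma adjusted p = 0.0412) and Uqcrc2 (-0.49 ± 0.14, limma adjusted p = 0.0425). Cox6b2 was the member that rose (2.05 ± 0.57, limma adjusted p = 0.0348). Complex III had the lowest median at -0.48 and 8 of 8 negative, and the largest fall and rise among members not called were Ndufb4 (-0.89 ± 0.44) and Ndufs5 (2.42 ± 1.22). Within wild type the median was -0.03 and within the knockout -0.56. Without the untreated knockout library it was 0.02 with 0 members called, and without the knockout or the wild-type library at 12 h 0 and 2 were called. The count was 3 without the untreated wild-type library, either library refed for 2 h, or either ad libitum library at 6 or 24 h of doxorubicin.

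At 6 h Cox6b2 rose (2.80 ± 0.57, limma adjusted p = 0.0245), which is 1 member of 77, against 0.905% of all genes higher. Lower by limma were 0 members, against 0.436% of all genes. At unadjusted p under 0.05, 7 members were lower by limma, 6 by edgeR and 9 by DESeq2, and DESeq2 called 2 of them and edgeR 0. The median log2 difference was -0.18 with 65 of 77 negative, and the lowest values of the complexes were Uqcrfs1 at -0.58 ± 0.18, Ndufc1 at -0.53 ± 0.20, Atp5j at -0.42 ± 0.21 and Cox6c at -0.27 ± 0.27. Within wild type the median was 0.16 and within the knockout -0.52, and without the untreated knockout library the fitted median was 0.11 and Cox6b2 was no longer called, as without either library at 6 h. Uqcrfs1 stood at 7622 and 8358 normalized reads at 6 h, 6408 and 8233 at 12 h and 5624 and 6180 at 24 h. The 3 times share the same 2 untreated libraries, so they are not independent of each other.

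**Figure D4:**
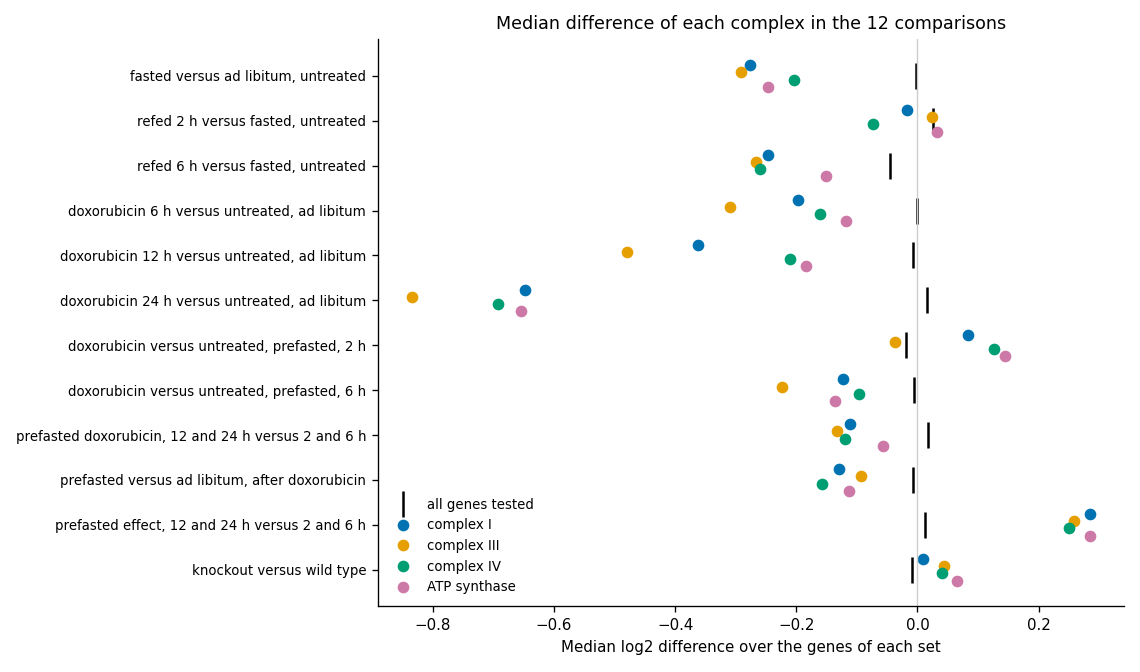
Median log2 difference of the genes of each complex (coloured points) and of all 11939 genes tested (black bars) in the 12 comparisons, as fitted. The comparison at 24 h of doxorubicin has the lowest medians, from -0.83 for complex III to -0.65 for complex I and the ATP synthase, and the knockout comparison lies near 0.

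Fasting for 24 h without drug gave 0 called members by limma (all genes 0.343% called), and also 0 by edgeR and DESeq2. At unadjusted p under 0.05, 4 members were lower by limma (Ndufv3, Ndufc1, Atp5j2 and Ndufa9), 5 by edgeR and 6 by DESeq2, and 0 were higher. The median log2 difference was -0.26 with 71 of 77 negative, but it was -0.08 within wild type (43 of 77 negative) and -0.52 within the knockout (72 of 77 negative). Without the untreated knockout library the fitted median was -0.04. The lowest member of each complex was Ndufb2 (-0.69 ± 0.40), Uqcrb (-0.64 ± 0.39), Cox5b-ps (-0.89 ± 0.67) and Atp5k (-0.64 ± 0.53), and none had an unadjusted p under 0.05.

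After 2 h of refeeding, no member differed from fasting beyond the spread of the libraries. By limma 0 members were called (all genes 0.251% called) and 0 had an unadjusted p under 0.05, which was also so with edgeR and DESeq2, and the median was -0.03. After 6 h of refeeding limma again called 0 members, although 7.02% of all genes were called, and edgeR and DESeq2 called 0 too. At unadjusted p under 0.05, 4 complex I genes were lower by limma (Ndufab1, Ndufs4 and Ndufa4 among them), 4 by edgeR and 3 by DESeq2. The median was -0.25 with 66 of 77 negative, and the genotypes went opposite ways, with 0.07 in wild type and -0.55 in the knockout. The knockout library refed for 6 h set the sign: without it the median was 0.14 with 1 member called, and without the wild-type one it was -0.57 with 8 called. With the length trend removed from each library the median was 0.06. The muscle isoform Cox7a1 followed the same library, at 613 normalized reads in the knockout refed for 6 h against 1309 in wild type, and its highest value was 2452 in the untreated knockout fed ad libitum, where the summed smooth muscle markers were also highest (7689). In the knockout refed for 6 h, where Cox7a1 was lowest, the smooth muscle sum was 5165, against 5488 in wild type refed for 6 h. The striated muscle sum of 1948 in that knockout library was the highest of the 23 libraries. Of the striated muscle markers Acta1 reached 1891 normalized reads at most, and Ckm and Myh7 15.2 and 21.9. The part of muscle in the Cox7a1 level was not tested.

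In prefasted mice doxorubicin could be set beside untreated mice at the same time of refeeding. At 2 h 0 members were called by limma (all genes 0.0335% called) or by edgeR and DESeq2, 1 was lower at unadjusted p under 0.05 (Uqcrc2, -0.38 ± 0.14, by limma), and 1 was lower by edgeR and DESeq2 with 1 higher by DESeq2. The median difference was 0.09, made of -0.04 in wild type and 0.23 in the knockout. At 6 h 0 members were called (all genes 0% called) and 0 had an unadjusted p under 0.05 by limma, edgeR or DESeq2, with a median of -0.13. This median joins -0.61 in wild type and 0.50 in the knockout. The wild-type drug libraries in both comparisons are among those with conflicting titles, and without these the medians were 0.26 at 2 h and 0.16 at 6 h. Between the later times (12 and 24 h) and the earlier ones (2 and 6 h) of prefasted doxorubicin mice 0 members were called by limma, edgeR or DESeq2 (all genes 0.0921% called by limma), the median was -0.10 with 64 of 77 negative, and the 1 member with an unadjusted p under 0.05 in each tool was Cox6b2 (1.23 ± 0.40 by limma). Without the libraries with conflicting titles the median was -0.34.

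Whether a fast before doxorubicin changed the level of these genes was asked in 7 pairs matched on genotype and time. By limma 0 members were called (all genes 0% called), as with edgeR and DESeq2, while 8 members were lower at unadjusted p under 0.05 by limma, 7 by edgeR and 6 by DESeq2. The median was -0.13 with 67 of 77 negative, and 5 of 7 pairs had a negative median. In wild type the pair medians were -0.06 at 2 h, -0.71 at 6 h, -0.02 at 12 h and 0.10 at 24 h, and in the knockout they were -0.09 at 6 h, -0.34 at 12 h and 0.18 at 24 h. The pair at 6 h in wild type, where 76 of 77 members were lower after the prefast, is the outermost. Without the prefasted or the ad libitum library of that pair the median over the pairs was -0.03. Of the 8 named by p, Ndufs5 (-1.03 ± 0.39), Cox5b-ps (-0.77 ± 0.30) and Uqcr11 (-0.48 ± 0.18) had the lowest values, and none of the 8 passed after adjustment. The feeding difference itself was compared between late and early times: 0 members were called by limma (all genes 0% called), edgeR or DESeq2, 3 were higher at unadjusted p under 0.05 by limma (Cox6b2, Ndufb4 and Ndufb6) and 2 by edgeR and by DESeq2. The median was 0.27 with 71 of 77 positive, and without the libraries with conflicting titles, which leaves only knockout pairs, it was -0.01. Without either wild-type library at 6 h it was 0.03.

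Loss of Ddit4 left the level of the members as a set close to that in wild type. Over the 11 conditions with both genotypes the median difference of knockout from wild type was 0.03, and by limma 1 member fell, Ndufs5 (1.30%, against 0.142% of all genes lower), and 0 rose. At unadjusted p under 0.05, 9 members were higher and 3 lower by limma, 9 and 2 by edgeR and 9 and 3 by DESeq2, of which edgeR called 0 and DESeq2 called 1 higher and 1 lower. The 9 were Uqcrc2 (0.20 ± 0.06, higher in 11 of 11 pairs), Atp5a1, Cox6a1, Ndufv1, Atp5b, Uqcrc1, Ndufa10, Ndufa9 and Uqcrfs1, with differences of 0.18 to 0.23. None of the 9 passed after adjustment with limma. The median by condition ranged from 0.55 in untreated mice fed ad libitum to -0.70 in those refed for 6 h, and it was -0.10, 0.01 and -0.01 at 6, 12 and 24 h of doxorubicin with ad libitum feeding.

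Ndufs5, an accessory subunit of complex I in the intermembrane space (chr4:123712710-123718202, minus strand), behaved unlike the rest. In wild type it was even, at 838 normalized reads untreated, 622 fasted, 573 and 627 refed for 2 and 6 h, 752, 912, 723 and 640 at 2, 6, 12 and 24 h of doxorubicin with ad libitum feeding, and 787, 432, 745 and 696 at those times after the prefast. In the knockout it was 28.2 untreated, 303 fasted, 17.6 and 159 refed for 2 and 6 h, 39.9, 969 and 284 at 6, 12 and 24 h of doxorubicin with ad libitum feeding, and 405, 13.1, 505 and 17.8 at 2, 6, 12 and 24 h after the prefast. Knockout libraries thus spread from 13.1 to 969, and 10 of 11 lay below their wild-type partner, with the pair at 12 h of doxorubicin and ad libitum feeding the exception. The log2 difference was -2.70 ± 0.52 (limma adjusted p = 0.0264). Values under 40 came from untreated and doxorubicin mice, from ad libitum and refed mice, and from 0, 2, 6 and 24 h. The annotation holds a processed pseudogene, BC002163, with 99.37% identity over 60.8% of the Ndufs5 transcript, which is not a row of the table, so reads could be split between them and the values are uncertain. The call was lost without either library of the untreated ad libitum pair, the pair refed for 2 h, or the 6 h doxorubicin pairs with ad libitum feeding and after the prefast (adjusted p of 0.053 to 0.0622), with edgeR (adjusted p = 0.0783), without the libraries with conflicting titles (0.164) and without those lacking Y-linked reads (0.158), and the difference in those settings lay between -2.58 and -2.36.

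**Figure D5:**
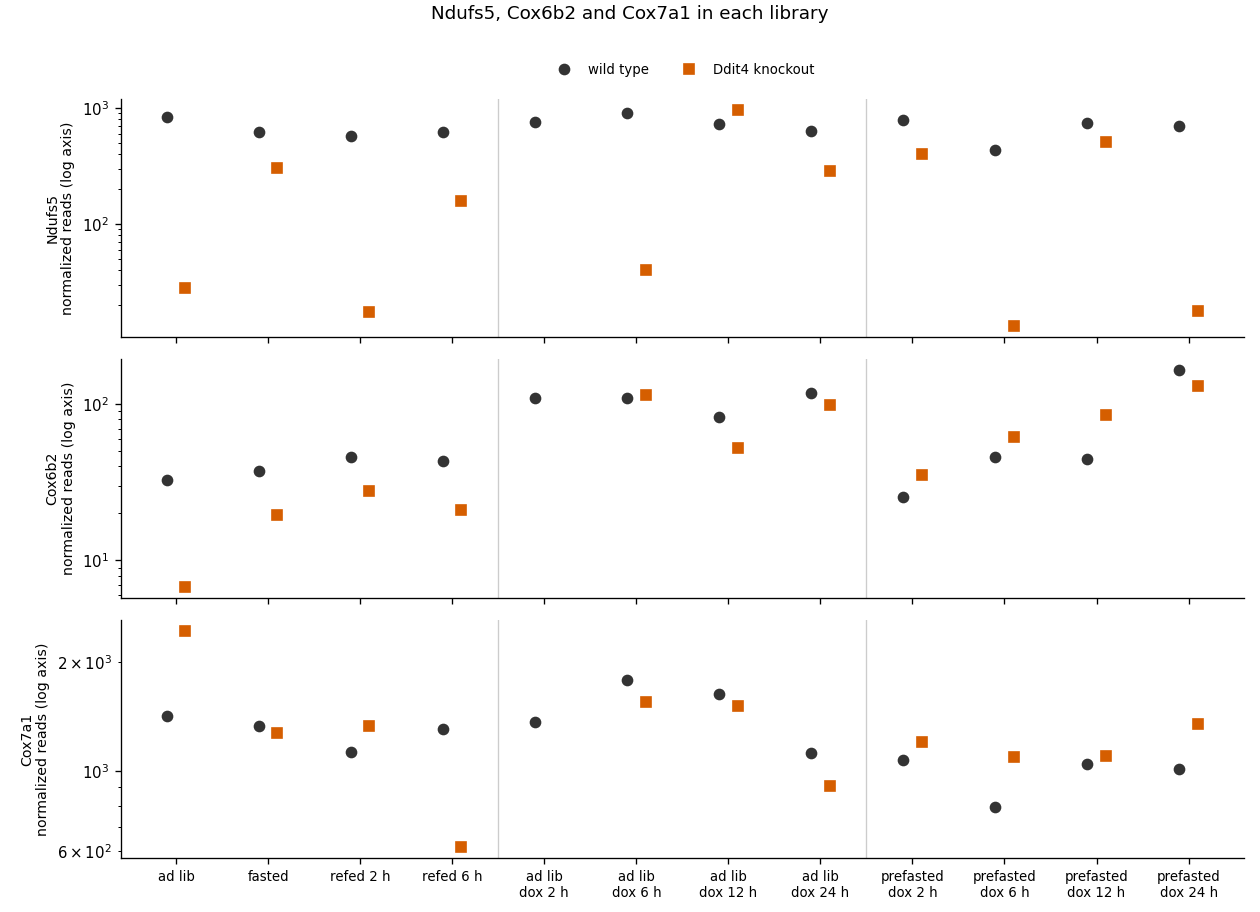
Normalized reads (log axis) of Ndufs5, Cox6b2 and Cox7a1 in each library, with circles for wild type and squares for the Ddit4 knockout. Ndufs5 is even in wild type and spreads from 13.1 to 969 in the knockout, Cox6b2 is higher in the 7 ad libitum doxorubicin libraries than in the 8 untreated ones, and Cox7a1 runs from 613 to 2452.

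Cox6b2 (chr7:4751792-4753094, minus strand) was the only member called higher by limma in any of the 12 comparisons, from a low level. In untreated wild-type mice it stood at 32.7 normalized reads fed ad libitum, 37.3 fasted, and 46.2 and 43.5 refed for 2 and 6 h, and in the knockout at 6.77, 19.7, 28 and 20.9. With ad libitum feeding and doxorubicin the wild-type values were 109, 110, 82.8 and 119 (2, 6, 12 and 24 h) and the knockout values 114, 52.4 and 99.4 (6, 12 and 24 h). These 7 drug libraries lie above all 8 untreated ones. After the prefast the wild-type values were 25.7, 46.0, 44.6 and 166 and the knockout values 35.4, 62.0, 85.0 and 130, in the same order of times, so that the early prefasted values overlap the untreated ones and the 24 h values are the highest in the series. The difference from untreated prefasted mice at 2 h was -0.25 ± 0.57 and at 6 h 0.80 ± 0.57, and neither passed. The ubiquitous form Cox6b1 did not pass in any of the 12 comparisons. The size of the Cox6b2 rise rests on 1 library: without the untreated knockout fed ad libitum it was 1.85, 1.09 and 1.80 at 6, 12 and 24 h and no longer passed (adjusted p of 0.311, 0.375 and 0.236).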

How the data were processed

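The authors extracted RNA from whole proximal small intestine and sequenced poly-A selected, non-directional libraries as read pairs, per the labels' protocols. The submitters' processing notes list Trim Galore, STAR and DESeq2 as tools and mm10 as the build, without versions. How reads were counted, and with which annotation, is not given in the sources used here. The deposited table holds signal values for 16259 genes in 23 libraries: read counts divided by 1 size factor per library, not log transformed. In every library 100% of values were whole multiples of 1 read within 0.01 of a read (largest deviation 7.12e-05), so reads could be recovered. Values below are normalized reads, and log2 differences are on the log2(value + 1) scale, which understates changes of low genes.

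Tests were two-sided, by limma 3.58.1 with a mean-variance trend under R 4.3.3, over the 11939 genes averaging 10 or more, with Benjamini-Hochberg adjustment at 0.05. One model had 12 conditions plus genotype over 23 libraries (10 residual degrees of freedom). The feeding comparison used 7 pairs of doxorubicin libraries matched for time and genotype (with 6 residual degrees of freedom, or 5 in the late against early test). edgeR 4.0.16 and DESeq2 1.42.0 on recovered reads were alternatives, beside other pseudocounts, filters, scalings and array weights, leaving out each library, leaving out the libraries that go against their labels, and removing a length trend. The last, and the gene lists at 24 h without the untreated knockout library, were added after seeing the data. On simulated data for 11939 genes, the 24 h doxorubicin comparison recovered 36% of genes changed 2-fold and 91% of those changed 4-fold, with 9 false calls. The members and gene lists were chosen with earlier results of these data known.

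For each comparison the text names the members past the threshold, the members with the largest rise and fall of each complex, the isoform pairs, and the members nearest the mean of 10. The values of 1 member enter the counts and medians and are not reported here. Transcript lengths and types came from GENCODE vM21 or, for 3 members, RefSeq. A near copy is another annotated transcript with at least 95% identity over 60% of the member's. No column of the table was left unmapped. Intervals and errors cover only the spread between libraries.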

Additional observations from a re-analysis of the deposited data

Results flagged for a closer look

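In the 4 untreated libraries of refed mice, the mean level of complex III in the knockout library refed for 6 h was -0.46 (log2, against the 23-library mean of each gene), far below the nearest of the other 3 at 0.15. In the same library the 384 other short transcripts stood at -0.57. Of 24 combinations of a level or gene with a group of libraries looked at in this way, this was the only one marked. Chance alone marks about 1 in 20, and the 24 are not independent because the complexes' levels go together.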

How the results depend on the processing

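The number of members called depended on the settings in the doxorubicin comparisons and in the knockout comparison. At 24 h of doxorubicin 11 members were called; the number was 50 with array weights, 33 with DESeq2, 18 without the 4 libraries with conflicting titles, 19 without the 2 with pancreatic transcripts, 6 with the length trend removed and 0 without the 3 lacking Y-linked reads, and 0 to 23 when 1 library at a time was left out. At 12 h 5 were called; the number was 13 after quantile normalization, 16 with array weights, 3 with edgeR, with no filter on low values or with the length trend removed, 0 without the 3 that lack Y-linked reads, and 0 to 7 leaving out 1 library. At 6 h 1 was called; the number was 3 with quantile normalization, array weights or DESeq2, 0 without the 3 that lack Y-linked reads, and 0 to 1 leaving out 1 library. For the knockout 1 was called; the number was 0 with edgeR, 2 with DESeq2, 0 without the 4 libraries with conflicting titles or the 3 lacking Y-linked reads, and 0 to 1 leaving out 1 library. After 6 h of refeeding the number was 0 to 8 leaving out 1 library and 0 in the other settings. In the remaining 7 comparisons it was 0 in every setting run. The cause of these shifts was not tested, except that settings without a library fit fewer libraries.

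The median difference at 24 h kept its sign in every setting, from -0.97 without the untreated wild-type library to -0.37 with the length trend removed. At 12 h it was -0.01 with the length trend removed and -0.46 after quantile normalization. Among the other values recomputed (named members, medians and levels per library), 3981 stayed on their side of the threshold or moved within the spread, 134 kept the direction but no longer passed, 15 newly passed, and 22 with no test moved further. No fit with a replicate block was made, because the labels give no replicate numbers. The pairs of the feeding comparison are matched on genotype and time. The feeding pairs hold none of the libraries left out for pancreatic transcripts or for lacking Y-linked reads. Those settings were therefore not run for them. Smaller sums of pancreatic markers were present in the pairs. Wild type stood at 3717 normalized reads at 12 h with ad libitum feeding and at 3035 at 24 h after the prefast. Depth limits only low members: 1 read was worth up to 1.67 normalized reads, and Atp5g2 had 2 reads in its lowest library.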
